A study of Arabidopsis thaliana with 6 samples.

Results

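The genes described here are 7 regulators of adaxial identity, the identity of the upper side of the leaf. They were taken by their TAIR10 locus identifiers and comprise the 5 class III homeodomain-leucine zipper (HD-ZIP III) genes PHABULOSA (PHB, AT2G34710), PHAVOLUTA (PHV, AT1G30490), REVOLUTA (REV, AT5G60690), ATHB8 (AT4G32880) and ATHB15 (AT1G52150, also called CORONA), together with Asymmetric Leaves1 (AS1, AT2G37630) and Asymmetric Leaves2 (AS2, AT1G65620). They are 7 of the 27444 protein-coding genes of the annotation. For each gene, every listed window was collected from 2500 bp upstream of the annotated transcription start site (TSS) to 1000 bp past the gene end, an interval called the gene window below.

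The study examined how WUSCHEL (WUS), a homeodomain factor that maintains stem cells in the shoot apical meristem, acts on chromatin. Chromatin immunoprecipitation with sequencing (ChIP-seq) was carried out on whole Arabidopsis seedlings 5 days after germination that had received 25 µM dexamethasone for 2 h according to the labels. A lower dose appears in the methods of the study, and the label was followed. The WUS-GR line carried pUBI10::mCherry-GR-linker-WUS, in which the glucocorticoid receptor domain (GR) holds the tagged WUS outside the nucleus until dexamethasone is given. Col-0 wild-type seedlings without the transgene received the same dexamethasone treatment and formed the control. The promoter is active in most tissues, so WUS was induced far outside its own domain in the meristem centre. DNA was recovered with RFP-trap, which binds mCherry, or with antibodies to H3K9/K14ac, an acetylation of histone H3 found at active genes, and H3K27me3, a methylation deposited by Polycomb complexes at silent genes.

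Each of the 6 combinations of genotype and pull-down was represented by 1 list of windows, made from pooled immunoprecipitations, so there is no replicate error and no test between conditions. Tagged-WUS signal in a WUS-GR RFP-trap window exceeded that of Col-0, and adjoining windows are called a WUS-GR region. A histone window is called gained where WUS-GR exceeded Col-0 and lost where Col-0 exceeded WUS-GR. The lists hold positions without counts or scores. The strength of a call and the sequencing depth are therefore unknown, and tissue markers could not be checked. The lists held 42402 WUS-GR and 706 Col-0 RFP-trap windows of 100 bp, and 6023 to 12975 histone windows of 500 bp.

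HD-ZIP III proteins bind DNA through a homeodomain and a leucine zipper and also carry a lipid-binding START domain. They promote adaxial leaf fate, vascular patterning and the formation of the shoot meristem, and the microRNAs miR165 and miR166 cleave their transcripts on the lower, abaxial side. AS1, a MYB-domain protein, and AS2, a LOB-domain protein, act in 1 complex that keeps class I KNOX meristem genes off in leaves and promotes adaxial fate.

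All 7 genes carried a WUS-GR region in their window, and for 6 of them it lay upstream of the gene. The stretches below show, for each gene, the longest region wholly upstream, read along the gene from 5′ to 3′ from the TAIR10.1 reference and cut to its central 300 bases where it is longer. For ATHB8, which had no upstream region, the bases of its region downstream of the gene that lie outside every annotated gene are shown. They are given because they are the DNA in which the tagged WUS signal lay. None of the 7 stretches overlaps the gene it is listed for. Overlap with other annotated genes was excluded for ATHB8 only. Capitals mark matches, on either strand, to the words searched for, which are described further below.
PHB, chr2:14645251-14645550, minus strand: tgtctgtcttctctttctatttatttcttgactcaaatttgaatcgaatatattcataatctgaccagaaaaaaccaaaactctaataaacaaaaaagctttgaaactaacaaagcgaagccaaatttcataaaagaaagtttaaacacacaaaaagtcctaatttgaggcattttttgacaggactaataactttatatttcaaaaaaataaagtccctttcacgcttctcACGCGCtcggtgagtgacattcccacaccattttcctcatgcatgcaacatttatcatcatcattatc
PHV, chr1:10802201-10802400, minus strand: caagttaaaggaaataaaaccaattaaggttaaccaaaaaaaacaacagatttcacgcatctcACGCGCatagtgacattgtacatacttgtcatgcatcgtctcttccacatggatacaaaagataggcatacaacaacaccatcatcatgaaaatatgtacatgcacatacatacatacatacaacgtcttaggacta
REV, chr5:24394501-24394800, plus strand: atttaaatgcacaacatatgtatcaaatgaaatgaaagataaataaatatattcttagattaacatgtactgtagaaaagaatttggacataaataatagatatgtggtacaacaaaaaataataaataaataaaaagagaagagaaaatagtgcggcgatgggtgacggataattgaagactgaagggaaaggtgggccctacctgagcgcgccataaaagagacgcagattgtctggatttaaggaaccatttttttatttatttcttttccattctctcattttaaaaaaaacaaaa
ATHB8, chr4:15862815-15863000, minus strand: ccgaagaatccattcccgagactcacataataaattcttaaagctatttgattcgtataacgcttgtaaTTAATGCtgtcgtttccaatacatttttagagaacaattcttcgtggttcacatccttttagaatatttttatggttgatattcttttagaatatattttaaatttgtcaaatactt
ATHB15, chr1:19415751-19416050, minus strand: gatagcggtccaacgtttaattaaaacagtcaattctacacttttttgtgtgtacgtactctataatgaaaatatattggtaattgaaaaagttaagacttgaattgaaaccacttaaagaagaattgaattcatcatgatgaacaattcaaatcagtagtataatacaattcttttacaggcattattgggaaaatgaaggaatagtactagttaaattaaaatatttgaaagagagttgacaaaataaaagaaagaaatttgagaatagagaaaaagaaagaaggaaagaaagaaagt
AS1, chr2:15784301-15784600, minus strand: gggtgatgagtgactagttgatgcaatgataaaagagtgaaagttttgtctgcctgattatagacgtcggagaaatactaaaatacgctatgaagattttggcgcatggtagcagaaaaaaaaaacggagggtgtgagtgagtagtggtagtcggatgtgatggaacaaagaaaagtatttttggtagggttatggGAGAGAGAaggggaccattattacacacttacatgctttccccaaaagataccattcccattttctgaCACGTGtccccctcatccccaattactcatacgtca
AS2, chr1:24396951-24397250, plus strand: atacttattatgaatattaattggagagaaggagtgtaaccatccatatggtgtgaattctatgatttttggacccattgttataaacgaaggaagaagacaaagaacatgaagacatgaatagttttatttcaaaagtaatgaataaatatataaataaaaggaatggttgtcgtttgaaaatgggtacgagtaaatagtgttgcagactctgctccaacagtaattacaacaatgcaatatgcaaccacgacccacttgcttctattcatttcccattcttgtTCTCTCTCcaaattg
The lowest GC content among the 12 regions of the 7 genes was 27.5%, at ATHB8, and the highest was 39.0%, at the PHB start site. The median over all 10087 WUS-GR regions was 34.8%.

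A WUS-GR region was present in the window of 7 of 7 genes, against 38.1% of protein-coding genes (10452 of 27444). The study names AS2 among earlier known direct targets that it recovered again in these data, so that call was known beforehand. No Col-0 RFP-trap window lay in any of the 7 gene windows, and 2.39% of protein-coding genes held one. Such a window marks signal higher in Col-0 than in WUS-GR, so its absence does not measure background pull-down. The 7 gene windows, 55203 bp in all, contained 44 WUS-GR windows in 12 regions, which covered 4335 bp or 7.85% of them. Their lengths ran from 5749 to 8812 bp. A longer window has more room for a region, and shares of genes given here were not adjusted for window length. Over the windows of all protein-coding genes the covered share was 3.82%. PHB alone supplied 1555 of the 4335 bp. By feature, 3660 bp lay upstream, 475 bp in 5′ UTRs and 200 bp downstream. None of the covered bases was in coding sequence, introns or 3′ UTRs. The map of all listed regions by distance from the TSS shows the 7 genes side by side.

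**Figure D1:**
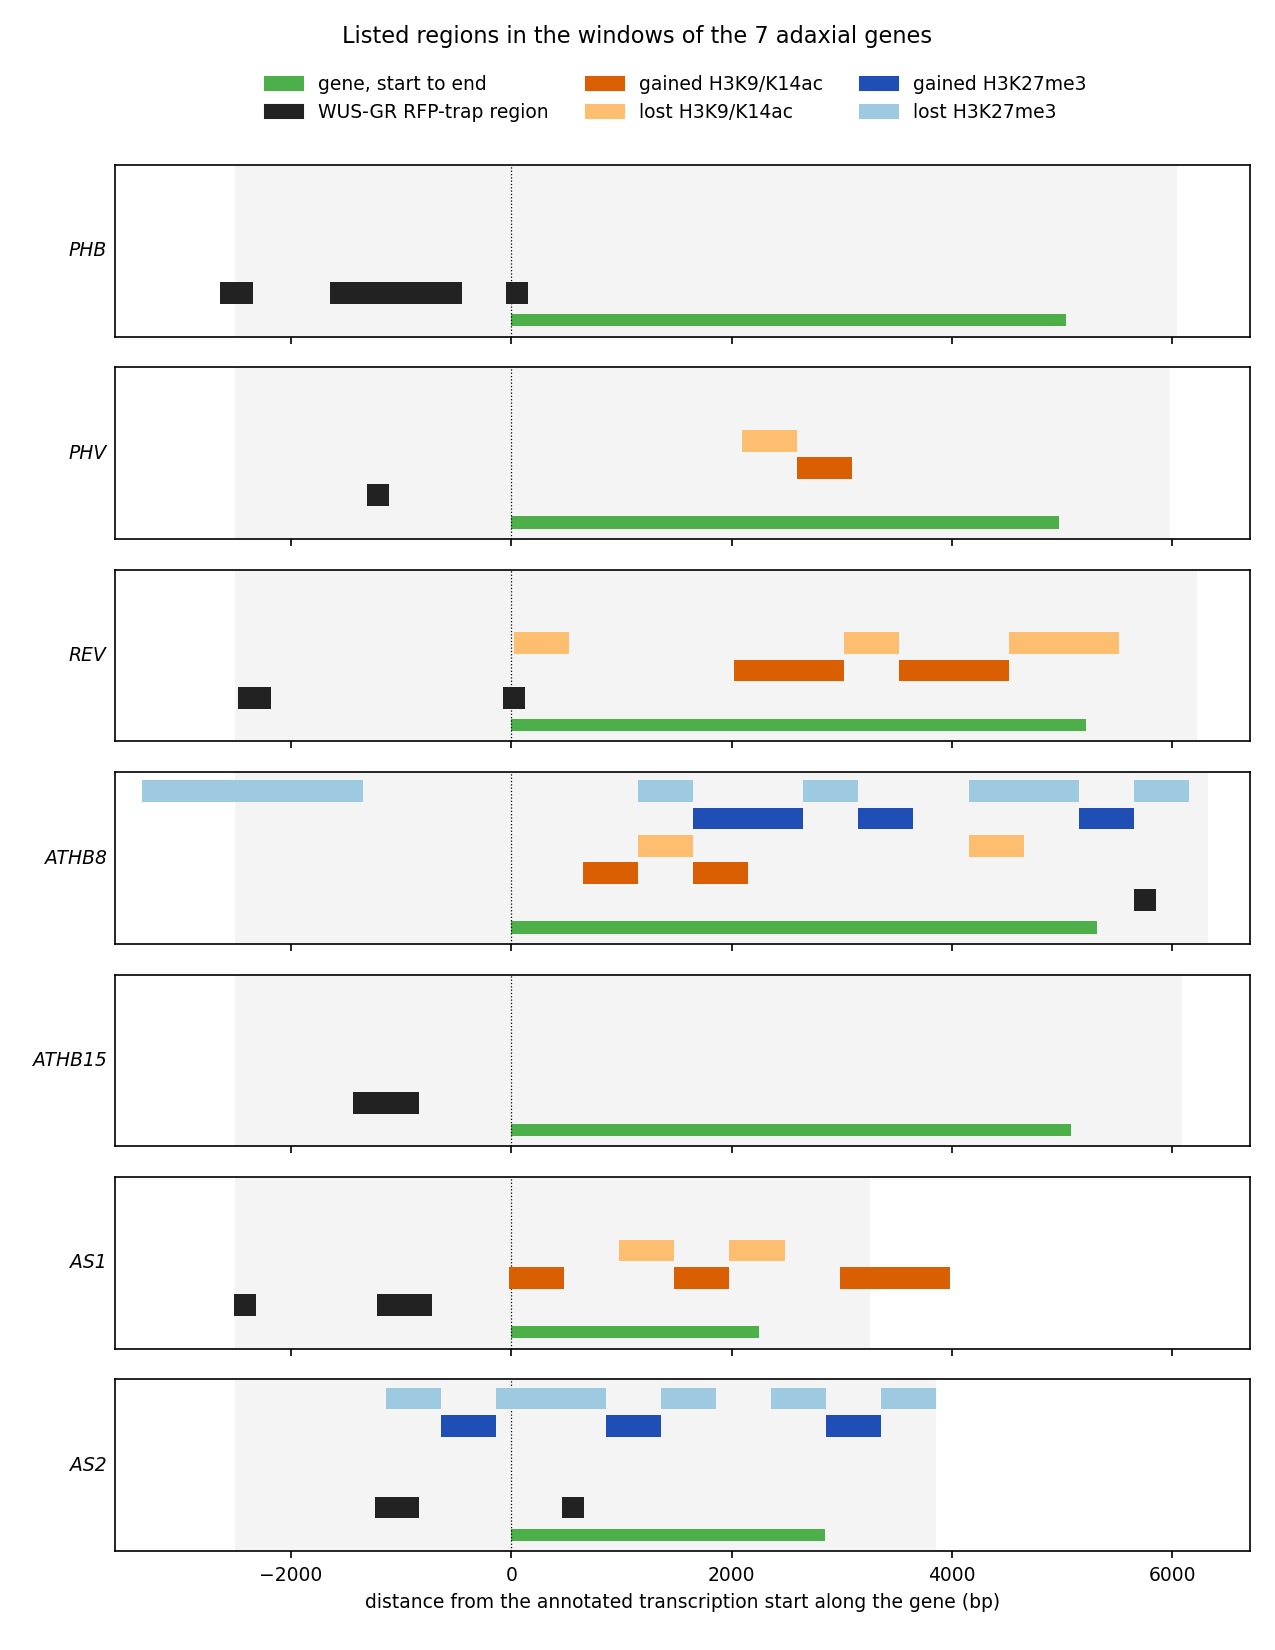
Listed regions at the 7 adaxial genes, plotted by distance in bp from the annotated TSS along each gene, with 1 panel a gene. Green bars are the genes, grey shading is the gene window, black bars are WUS-GR RFP-trap regions, and orange and blue bars are H3K9/K14ac and H3K27me3 regions, dark where gained and light where lost. Black bars lie upstream in every panel but ATHB8, and PHB and ATHB15 have no histone region.

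PHB, which with PHV specifies the upper leaf side, was the most heavily covered of the 7 genes. The gene lies on the minus strand of chromosome 2, from 14639323 to 14644355, and its window held 16 WUS-GR windows in 3 regions. A region of 200 bp ran from -45 to 154 bp relative to the TSS and so covered the start site. A region of 1200 bp ran from -1645 to -446 bp, and only 3.23% of all WUS-GR regions were as long. The third region, from -2645 to -2346 bp, extended past the upstream edge of the window. Together they covered 1555 bp of the PHB window, and 1.92% of protein-coding genes had as much covered. Of all protein-coding genes, 4.36% had 3 or more regions, and PHB was the only one of the 7 genes that did.

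PHV, the nearest relative of PHB in function, had a single region. The gene lies on the minus strand of chromosome 1, from 10796124 to 10801093. Its region was 200 bp long, from -1307 to -1108 bp, and made up the whole of its coverage. As many as 34.4% of protein-coding genes had at least that much covered. The TSS of PHV carried no WUS-GR window, in contrast to that of PHB.

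REV, which acts in vascular and lateral meristem development as well as leaf polarity, had 2 regions and 500 covered bases. It lies on the plus strand of chromosome 5, from 24396981 to 24402195. One region of 200 bp covered the TSS, from -80 to 119 bp. The other, of 300 bp, lay at the far end of the window, from -2480 to -2181 bp. A region covering the TSS was therefore found at PHB and REV, 2 of the 7 genes, against 11.3% of protein-coding genes.

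ATHB15, which restricts meristem size and acts in vascular development, had 1 region of 600 bp, from -1436 to -837 bp. The gene lies on the minus strand of chromosome 1, from 19409688 to 19414764. The region also fell in the window of the neighbouring gene AT1G52155, and 15.1% of protein-coding genes had at least 600 bp covered.

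ATHB8, a marker and regulator of early vascular cells, differed from the other 6 genes. It lies on the minus strand of chromosome 4, from 15863339 to 15868650, and had no region upstream, at the TSS or inside the gene. Its only region, of 200 bp, lay past the gene end, from 5650 to 5849 bp after the TSS, where the window of the neighbour AT4G32870 also reached. Such a position as the only one was found at 4.68% of protein-coding genes. Upstream, the nearest WUS-GR region began 2250 bp beyond the edge of the ATHB8 window, at -4751 bp from the TSS. When every region was assigned to a single gene by its midpoint, ATHB8 kept none and the count fell to 6 of 7 genes. The share of all protein-coding genes under this rule was not counted, so that count has no background.

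AS1 lies on the minus strand of chromosome 2, from 15781232 to 15783480, and had regions of 500 bp from -1220 to -721 bp and of 200 bp from -2520 to -2321 bp. They covered 680 bp of its window, and 12.5% of protein-coding genes had at least as much. AS2, the partner of AS1, lies on the plus strand of chromosome 1, from 24398143 to 24400989. Its regions measured 400 bp, from -1242 to -843 bp, and 200 bp, from 458 to 657 bp. The second lay in the 5′ UTR of the longer AS2 transcripts. Measured from the annotated transcript that starts at position 24399318, the same region lay upstream, from -717 to -518 bp. The upstream region also fell in the window of the neighbouring gene KOR2.

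Counted by position, 6 of the 7 genes had a region within 2500 bp upstream of the TSS, against 29.4% of protein-coding genes. At 3 genes (PHB, REV and AS2) a region reached into the gene, against 17.9%. At 1 gene, ATHB8, a region lay within 1000 bp past the gene end, against 12.6%. More than 1 region was present at 4 genes (PHB, REV, AS1 and AS2), against 14.2%.

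The upstream regions of 5 genes overlapped at the same distance from the start. The 113 bp from -1220 to -1108 bp were covered in PHB, PHV, ATHB15, AS1 and AS2, and this whole stretch was covered in 3.45% of protein-coding genes (948). The stretch was chosen because it was the position most often covered among the 7 genes, so the count of 5 describes these genes and carries no test. Over all protein-coding genes, coverage was highest close to the TSS, at 11.6% of genes in the 100 bp before it, and fell to 4.69% of genes between -1200 and -1101 bp. PHV, ATHB15 and AS1 had no WUS-GR window within the 700 bp before the TSS. ATHB8 and AS2 had none there either, and at PHB and REV windows reached the start itself. Lacking a window in these 700 bp was the usual state. Only 29.4% of protein-coding genes had a region anywhere within 2500 bp upstream.

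**Figure D2:**
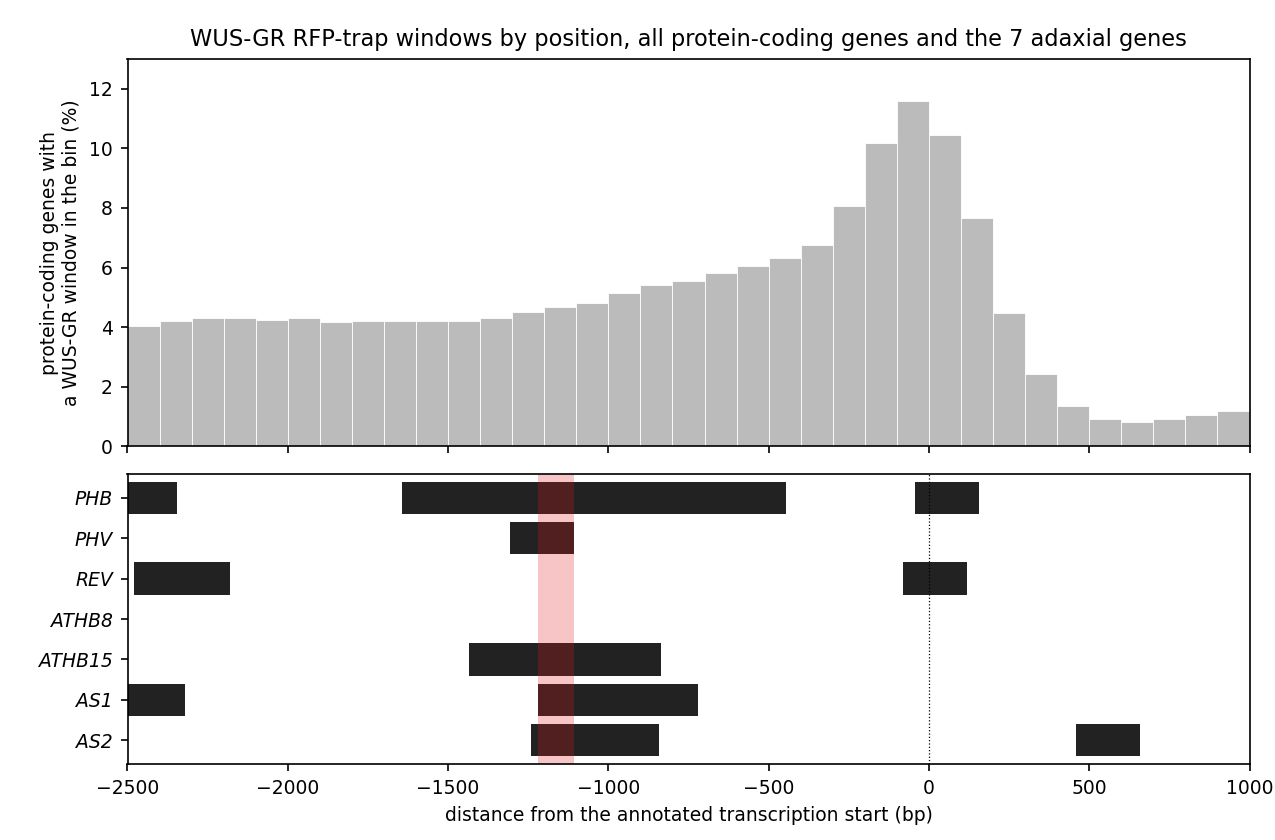
Position of WUS-GR RFP-trap windows, in bp from the annotated TSS. The upper panel gives the share of protein-coding genes with a window in each 100 bp bin, highest at 11.6%, and the lower panel gives the regions of the 7 genes as black bars. The red band marks -1220 to -1108 bp, covered in 5 of the 7 genes.

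The regions of PHB and PHV shared a stretch of sequence. A local alignment of their upstream regions, made after the sequences had been seen, gave a block with 39 identical bases over 51 aligned columns (76.5%). It lay from -992 to -943 bp at PHB and from -1271 to -1228 bp at PHV, both within WUS-GR regions. In the lines below, capitals mark the aligned bases that are identical in both genes.
PHB block, chr2:14645298-14645347, minus strand: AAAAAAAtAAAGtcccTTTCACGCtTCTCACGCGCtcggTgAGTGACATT
PHV block, chr1:10802321-10802364, minus strand: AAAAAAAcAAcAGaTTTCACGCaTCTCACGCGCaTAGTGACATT
The longest unbroken run in common was tctcacgcgc, of 10 bases. The block is not outstanding by score alone. Among 120 alignments of regions from different genes, 60 pairs in both orientations, its score of 38 was reached or passed by 3 including itself, and the highest was 40. The highest was a match between REV and ATHB15 whose longest common run was tttctttttc. The longest run of any pair, agaaagaaggaaaga, was shared by PHB and ATHB15.

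Short words were searched for on both strands of all 12 regions. The words were CACGTG, the core of the G-box, its longer form TCACGTGA, the homeodomain-type words TTAATGG and TTAATCC and TTAATGC and TTAATCG, with TGAATGAA and with AATGATT, the auxin response words TGTCTC and TGTCGG, and the repeat GAGAGAGA. A further word, ACGCGC, was added after the sequences had been seen. It is part of tctcacgcgc, the run shared by the PHB and PHV blocks, so its presence at these genes was known beforehand. TCACGTGA contains CACGTG, so matches to the longer form count for both. CACGTG occurred only at AS1, from -856 to -851 bp, against 22.6% of all WUS-GR regions. GAGAGAGA was present in 1 region each of PHB, REV, AS1 and AS2, 4 of the 12 regions, against 15.6% of all regions. ACGCGC was present at PHB, from -963 to -958 bp, and at PHV, from -1244 to -1239 bp, both inside the shared block, against 8.37% of all regions. Among all WUS-GR regions of the same length, it was found in 23.3% of those of 1200 bp, as at PHB, and in 5.75% of those of 200 bp, as at PHV.

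TGTCTC occurred only at ATHB15, with 2 adjoining matches from -935 to -924 bp, and TGTCGG only at REV, from 27 to 32 bp. These words were found in 23.6% and 10.4% of all regions. TTAATGC matched once at ATHB8 (5.66% of all regions) and AATGATT once at ATHB15 (16.6%). The other 5 words matched none of the 12 regions. Long regions have more room for a match, and a match is no measure of binding.

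Changes of acetylation were found at 4 genes and changes of methylation at 2. H3K9/K14ac was gained in the windows of PHV, REV, ATHB8 and AS1, 4 of 7 genes, against 49.2% of protein-coding genes, and was lost in the windows of the same 4 genes, against 46.0%. H3K27me3 was gained at ATHB8 and AS2, 2 of 7, against 18.1%, and lost at the same 2 genes, against 27.6%. Both a gain and a loss of acetylation were found at 29.6% of protein-coding genes, and both a gain and a loss of methylation at 15.0%. ATHB8 was the only one of the 7 with both marks changed, against 16.6%.

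PHB and ATHB15 carried no window of either mark, although both had WUS-GR regions. Of protein-coding genes, 20.3% had neither mark changed, and 5.83% combined this with a WUS-GR region. Gained H3K27me3 began 645 bp beyond the upstream edge of the PHB window, and lost H3K27me3 began 687 bp beyond the downstream edge of the ATHB15 window. The nearest gained or lost acetylation to the 600 bp ATHB15 region was 11100 bp away.

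**Figure D3:**
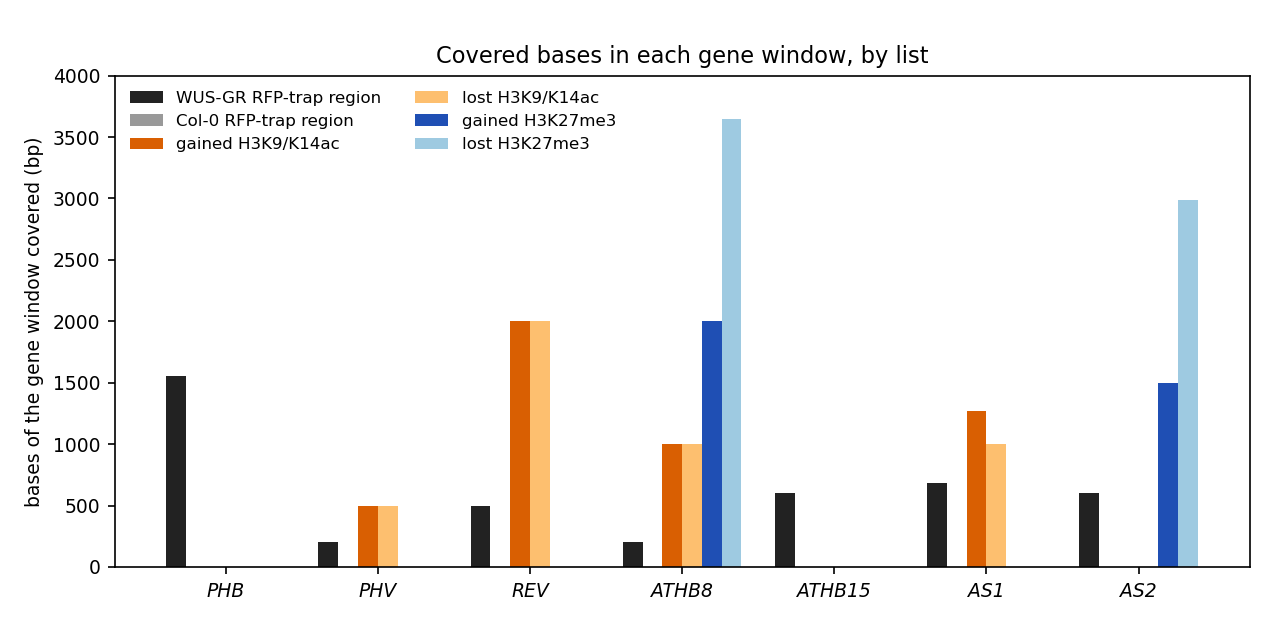
Bases of each gene window covered by the 6 lists, in bp, with 1 bar a list for each of the 7 genes. The highest bars are lost H3K27me3 at ATHB8 (3650 bp) and AS2 (2989 bp), the Col-0 RFP-trap list is at 0 throughout, and PHB and ATHB15 show WUS-GR bases only.

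Gained and lost windows of the same mark mostly lay side by side. The authors discarded opposite calls of 1 mark with less than 73 bp between them, and the deposited lists still hold these. At PHV, a lost acetylation region from 2093 to 2592 bp met a gained one from 2593 to 3092 bp, both in exons and introns of the gene body. At REV, gained regions from 2020 to 3019 bp and from 3520 to 4519 bp alternated with lost regions from 3020 to 3519 bp and from 4520 to 5519 bp. Gained bases came to 2000 bp. Lost bases came to 2000 bp as well, counting a separate lost region from 20 to 519 bp. At AS2, 3 gained and 5 lost H3K27me3 regions met at 6 boundaries between -1142 and 3857 bp. At ATHB8, H3K27me3 regions met at 5 boundaries and acetylation regions at 2.

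After the 73 bp rule, gained acetylation remained at AS1 alone, 1 of 7 genes against 33.1% of protein-coding genes. Lost acetylation remained at REV and ATHB8, 2 of 7 against 28.8%, and lost H3K27me3 at ATHB8, 1 of 7 against 14.2%. Gained H3K27me3 remained at 0 of 7 genes, against 3.88%. In regions, 4 of 16 acetylation regions and 1 of 16 methylation regions of the 7 genes were left. Over the genome, 57.3% and 28.7% of the regions of these marks were left. Regions of the same gene are not independent of each other.

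At REV, lost acetylation from 20 to 519 bp lay wholly in the 5′ UTR and overlapped the WUS-GR region at the start site by 100 bp. No other WUS-GR region of the 7 genes overlapped or adjoined an acetylation region. At AS1, gained acetylation from -20 to 479 bp spanned the start site, 700 bp from the nearest WUS-GR region. A second gained region, from 2980 to 3979 bp, lay past the gene end in the windows of ACT1 and AT2G37610 as well. At ATHB8, acetylation was lost from 4150 to 4649 bp in the gene body.

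H3K27me3 was lost most widely at ATHB8 and AS2. At ATHB8, lost H3K27me3 covered 3650 bp in 5 regions, and 0.463% of protein-coding genes had as much covered. Gained H3K27me3 covered 2000 bp in 3 regions, with 1.25% of genes at or above it. The longest lost region, of 2000 bp from -3350 to -1351 bp, lay upstream, partly outside the window, and was the 1 methylation region left by the 73 bp rule. At AS2, lost H3K27me3 covered 2989 bp (1.63% of genes as much) and gained H3K27me3 covered 1500 bp (3.08%). These ranks use covered bases, and the ATHB8 window is longer than that of AS2 (8812 against 6347 bp). As a share of its own window, lost H3K27me3 covered 41.4% at ATHB8 and 47.1% at AS2. Gained H3K27me3 covered 22.7% at ATHB8 and 23.6% at AS2. Over the 7 gene windows together, lost H3K27me3 covered 12.0% of bases against 5.55% for all protein-coding genes, and gained H3K27me3 6.34% against 2.62%. Both shares came from 2 genes only.

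**Figure D4:**
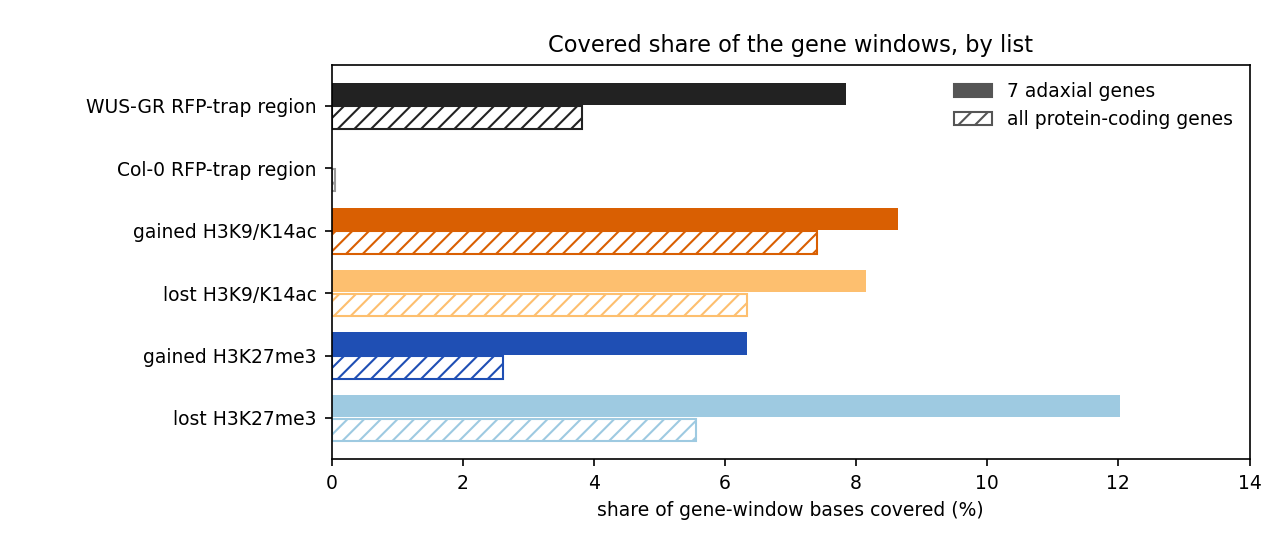
Share of gene-window bases covered by each of the 6 lists, in percent, for the 7 adaxial genes together (filled bars) and for all 27444 protein-coding genes (hatched bars). WUS-GR regions cover 7.85% against 3.82%, and lost H3K27me3 covers 12.0% against 5.55%.

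The WUS-GR regions of ATHB8 and AS2 lay in or beside these methylation regions. The ATHB8 region downstream of the gene lay with all of its 200 bp in a lost H3K27me3 region and adjoined a gained one directly. At AS2, the upstream region overlapped lost H3K27me3 by 300 bp and the region in the 5′ UTR overlapped it by 200 bp. Both AS2 regions were 200 bp from the nearest gained H3K27me3. None of these methylation regions was left by the 73 bp rule. At PHV, REV and AS1 the nearest H3K27me3 region was 12700 bp or more from a WUS-GR region.

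In 3 windows of 500 bp both marks were called, all within the ATHB8 gene, and in all 3 the marks had the same direction. The window starting at position 15866501 was gained in both marks, and those starting at 15864001 and 15867001 were lost in both. None of the 3 kept both calls after the 73 bp rule. Only the lost acetylation at 15864001 was left. Over the genome, 1170 windows were called for both marks, and in 50.2% of them the direction was the same. H3K9/K14ac and H3K27me3 are marks of opposite transcriptional states, and each list gives only the direction of the difference between genotypes.

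The HD-ZIP III genes are held in check by miR165 and miR166, and the position of the target site was compared with the listed windows. The 2 mature microRNAs, read from the annotation and genome in DNA letters with the seed (bases 2 to 8) in capitals, share that seed.
miR165: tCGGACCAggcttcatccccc
miR166: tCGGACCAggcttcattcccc
The best match in each spliced HD-ZIP III transcript differed from the perfect complement of miR166 at 4 positions, or at 3 in ATHB15, with G:U pairs counted as differences. The bases that pair with the seed are in capitals, and they were the same in all 5 genes.
PHB site: ttgggatgaagccTGGTCCGg
PHV site: ttgggatgaagccTGGTCCGg
REV site: ctgggatgaagccTGGTCCGg
ATHB8 site: ctgggatgaagccTGGTCCGg
ATHB15 site: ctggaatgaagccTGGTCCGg
In all 5 genes the site was wholly coding and was split between 2 exons. It began between 1648 and 1806 bp after the TSS, on the genome, at PHV and REV respectively. The ATHB8 site, chr4:15866872-15866974 on the minus strand including its intron, lay in the window gained for both marks. Neither of these gained calls was left by the 73 bp rule. The sites of the other 4 genes lay in no listed window, and at REV gained acetylation began 102 bp away. The nearest WUS-GR window to any site was at PHB, 1534 bp away.

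The other genes of the pathway were counted in the same way, from lists chosen by role, and 24 of 36 had a WUS-GR region. Of these, 26 are protein-coding, and 19 of the 26 had a region, against 38.1% of protein-coding genes. The other 10 (9 microRNA genes and ZPR4) had regions at 5, and over all annotated genes the share was 33.5%. All 5 HD-ZIP II genes in the list, a family with members that cooperate with HD-ZIP III in leaf polarity, had regions, with 2300 bp covered at HAT3, 1700 bp each at HAT1 and HAT2, 1300 bp at ATHB2 and 700 bp at ATHB4. Of the 4 little zipper genes, whose products inhibit HD-ZIP III proteins by binding to them, ZPR1 alone had a region, from -1659 to -1260 bp. Both ARGONAUTE genes had a region over the TSS, against 11.3% of protein-coding genes. It ran from -68 to 131 bp at AGO1, which carries the microRNA to its targets. At AGO10, which sequesters the microRNA, it ran from -143 to 156 bp. Of 9 miR165 and miR166 genes, 5 had a region (MIR165A, MIR166A, MIR166C, MIR166D and MIR166E). MIR166C and MIR166D shared the same one, and windows of these genes were set from annotated hairpins. Regions lay closest to the hairpin start at MIR166A, from -407 to -8 bp, where acetylation was lost from -107 to 892 bp.

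Among the antagonists on the abaxial side, 9 of 12 genes had a region, against 38.1% of protein-coding genes. They included 3 of 4 KANADI genes (KAN1, KAN2 and KAN3) and 4 of 6 YABBY genes (FIL, YAB2, YAB3 and YAB5). Both auxin response factors, ETT and ARF4, had a region too. The study names KAN1, KAN2 and YAB3 among earlier known direct targets that it recovered again. It also lists the promoters of ETT (as ARF3) and ARF4 as bound, so these calls were known beforehand. A region covered the TSS of KAN2, from -55 to 144 bp, and of KAN3, from -273 to 126 bp. The same held for YAB2, from -12 to 187 bp, as at PHB and REV. Of the HD-ZIP II genes, ATHB2 (-213 to 186 bp), HAT1 (-117 to 282 bp) and HAT2 (-193 to 206 bp) had such a region. HAT3 and ATHB4 did not. Over all protein-coding genes the TSS was covered at 11.3%. Of the 4 class I KNOX genes, which AS1 and AS2 repress, KNAT2 and KNAT6 had a region in their window and KNAT1 and STM did not. This was 2 of 4, against 38.1% of protein-coding genes. H3K27me3 was gained and lost in the windows of all 4 KANADI, all 6 YABBY and all 4 KNOX genes. Both a gain and a loss were found at 15.0% of protein-coding genes. The 73 bp rule was not applied to the pathway genes. At KAN1, for instance, gained H3K27me3 from 1266 to 1765 bp adjoined lost H3K27me3 on both sides. At the 5 HD-ZIP II genes H3K27me3 was gained at none and lost at 1. Among the HD-ZIP III genes it changed at 1 of 5. Over all protein-coding genes, 18.1% had gained and 27.6% had lost H3K27me3. Acetylation was gained at 8 of the 36 genes, with the most bases at ETT (2000 bp) and at KAN1 and KNAT6 (1000 bp each). It was lost at 11, with the most bases at HAT1, KNAT2, MIR166A and MIR166B (1000 bp each). ETT also lost 500 bp. Of the 26 protein-coding genes, 7 had gained acetylation, against 49.2% of protein-coding genes, and 8 had lost acetylation, against 46.0%. ZPR3 had 1 lost H3K27me3 region as its only call and ZPR4, annotated as a non-coding RNA, had 1 gained acetylation region. These differences between lists were not tested.

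Likeness of pattern was measured over 100 bp bins from -2500 to 1000 bp of the TSS in all 6 lists, as bins called in both genes divided by bins called in either. It is a description over 6 lists. PHB was most like HAT2, an HD-ZIP II gene, with 14 shared bins and an index of 0.778, and the upstream region of HAT2 ran from -1593 to -394 bp. AT1G05710 (0.765) and AT3G61930 (0.750) followed. ATHB15 matched AT1G26200 in all 6 of its bins, and AT2G22420 and AT3G44450 at 0.857. ATHB8 was most like AT3G02010 (0.938), AT2G43850 (0.882) and AT3G53670 (0.875). AS1 was most like BCAT3 (0.833), then PDE345 and SPL7 (0.692 each), and AS2 was most like MYB54 (0.750), AT5G62330 (0.714) and DOX1 (0.690). REV was most like AT1G77250 and AT5G53080 (0.700 each) and p24delta5 (0.667). PHV had too few called bins to be compared in this way. Among the 7 genes themselves the highest index was that of PHB and ATHB15 (0.375), followed by PHB and AS1 (0.333), with PHV left out. ATHB8 shared no called bin with any other of the 7 genes, PHV included. The bins end at 1000 bp, however. At ATHB8 they held only the lost H3K27me3 upstream and gained acetylation from 650 bp. They left out its WUS-GR region, its gained H3K27me3, its lost acetylation and the acetylation regions of PHV.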

How the data were processed

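ChIP-seq of whole seedlings gave 6 lists, 1 for each combination of WUS-GR or Col-0 with RFP-trap, H3K9/K14ac or H3K27me3, and groups were taken from the sample titles. According to the labels and the study's methods, the authors mapped reads to TAIR10 with BWA, checked them with FastQC and called windows of 100 bp (RFP-trap) or 500 bp (histones) that differed between genotypes with hiddenDomains. The deposited values are positions only, without count, signal or score, so depth and the precision it gives are unknown. Pooled DNA was sequenced as more than 1 library, and the lists do not separate libraries. Adjacent windows were merged with Python 3.11.15, and a gene window was called from 1 bp of overlap. Gene models and sequences came from NCBI RefSeq TAIR10.1, whose chromosome lengths fit the last window of chromosome 3. Shares over 27444 protein-coding genes serve as background. In the alternatives, a Wilson 95% interval over genes marks a share as moved, although genes are not replicates. Alignments used Biopython 1.88 (match 2, mismatch -3, gap opening -5, extension -2). The overlap steps were tested on simulated data. Alternatives changed the reach of the window, the merging, the overlap rule and the treatment of neighbouring gained and lost regions. Named were the 7 members, pathway genes with a WUS-GR region or a histone call (in part by counts), and for members with at least 5 called bins the 3 protein-coding genes most alike over 35 bins of 100 bp, a bin being called from 50 covered bp. Neighbours whose windows share a region were named after they were seen. The members and lists were chosen with earlier results of these data known. The RNA-seq of the study was not analysed here.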

Additional observations from a re-analysis of the deposited data

How the results depend on the processing

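The counts of the 7 genes above 0 stayed within 1.5 times their value in 26 of 34 alternatives, and the Col-0 RFP-trap count of 0 could hardly move under narrower rules. The exceptions were WUS-GR regions within the gene only (3 genes), regions of 2 or more windows for gained (2) and lost acetylation (1) and gained H3K27me3 (1), and the 73 bp rule for gained (1) and lost acetylation (2) and gained (0) and lost H3K27me3 (1). Of the background shares, 37 of 40 moved beyond their counting interval. That interval treats genes as separate draws, although they are a full set and not replicates, so it measures no spread between rules. With 1000 bp upstream, the share was 31.9% for WUS-GR regions, 1.78% for Col-0 regions, 42.5% for gained H3K9/K14ac, 39.1% for lost H3K9/K14ac, 14.1% for gained H3K27me3 and 22.3% for lost H3K27me3. Within the gene only, the share was 17.9% for WUS-GR regions, 1.02% for Col-0 regions, 31.8% for gained H3K9/K14ac, 28.7% for lost H3K9/K14ac, 9.58% for gained H3K27me3 and 15.5% for lost H3K27me3. By midpoint, the share was 36.6% for WUS-GR regions, 46.0% for gained H3K9/K14ac, 42.9% for lost H3K9/K14ac, 16.5% for gained H3K27me3 and 24.7% for lost H3K27me3. With regions of 2 or more windows, the share was 35.6% for WUS-GR regions, 0.343% for Col-0 regions, 18.8% for gained H3K9/K14ac, 14.8% for lost H3K9/K14ac, 6.56% for gained H3K27me3 and 16.2% for lost H3K27me3. With windows up to 500 bp apart joined, the share was 36.2% for WUS-GR regions, 45.3% for gained H3K9/K14ac, 42.4% for lost H3K9/K14ac, 16.1% for gained H3K27me3 and 23.3% for lost H3K27me3. Over all 37899 annotated genes, the share was 33.5% for WUS-GR regions, 41.6% for gained H3K9/K14ac, 39.4% for lost H3K9/K14ac, 16.2% for gained H3K27me3 and 24.8% for lost H3K27me3. After the 73 bp rule, the share was 33.1% for gained H3K9/K14ac, 28.8% for lost H3K9/K14ac, 3.88% for gained H3K27me3 and 14.2% for lost H3K27me3. The cause of these moves was not tested beyond the narrower or wider rule itself. No paired analysis was possible because only 1 list stood for each group, and no replicate could be left out. A comparison of the HD-ZIP III proteins was not run. Without scores, no stricter threshold could be applied, and a gene without a window may have had signal below the authors' threshold. Whole seedlings mix tissues, so a changed window cannot be placed in meristem, leaf or root. No replicate, count or expression value stands behind any of these windows.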
